A study of Mus musculus with 6 samples.

Results

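The collagen chain genes are the genes whose symbol in the authors' deposited table reads Col, a type number, a and a chain number. The rule found 40 rows for 39 genes, among 35556 rows of which 25123 carried a symbol. Col5a2 had 2 rows, and the row with the highest mean over the 6 arrays stood for it. The genes fell into 11 fibrillar chains, 8 FACIT chains (collagens that sit on the surface of fibrils), 6 type IV chains, 3 type VI chains and 11 chains of other types.

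The arrays measured total RNA of mouse cells that had been taken from bone marrow, grown in a stem cell medium and collected at confluence. A group of 3 arrays held MSC21, a mesenchymal stem cell (MSC) population, and the other 3 held Clone 4L.1.4, a tertiary clone derived from MSC21. Neither group carried a labelled treatment or genetic change, and the labels give no strain, age, sex or passage number. The labels call the samples independent but name no separate animals, so the p-values measure the spread between samples of 1 population and 1 clone, which may be technical. What is common to clones in general and what belongs to Clone 4L.1.4 alone cannot be told apart.

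Collagens are the main proteins of the extracellular matrix, and each molecule is a rod of alpha chains wound around each other. Fibrillar collagens build the cables of bone, tendon, skin and cartilage, FACIT collagens decorate those cables, type IV collagens form the sheet of the basement membrane, and type VI collagens form beaded filaments near the cell surface. Marrow mesenchymal cells and the bone-forming cells that arise from them are major producers of type I collagen.

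Levels are log2 values normalized across arrays, and differences are the clone mean minus the population mean on that scale. A gene was called where limma's Benjamini-Hochberg adjusted p over all rows was under 0.05. Each level is set against the other genes on the same array. Levels of different genes are not compared, since each gene has its own probes. The medians of the 6 arrays lay between 5.19 and 5.25, and 10 collagen genes lay below the lowest of them in both groups, where array values respond little to a change in RNA. In such bulk RNA, fewer cells that express a gene and less RNA per cell cannot be told apart. Arrays of a group correlated with r of 0.9946 to 0.9958 over all rows, and arrays of different groups with 0.9749 to 0.9793. The median difference over all rows was 0.004. Of 7 stromal markers, 3 were called higher in the clone and 4 lower. By their means over the 6 arrays all 7 lay above the median level of all rows, where 42.1% of rows were called. Thy1, 1 of the 4 lower ones, went from 6.43 to 4.61, below the array medians in the clone (-1.82, limma adjusted p = 0.000103). Of the other markers, 8 of 9 leukocyte, 5 of 6 endothelial and 6 of 6 epithelial ones lay below the array medians in both groups. The endothelial marker Egfl7 went from 5.07 to 5.49 and was called higher (0.42, limma adjusted p = 0.0367). The mean level of the leukocyte markers was 4.68 to 4.73 in the population arrays and 4.55 to 4.59 in the clone arrays, with Ptprc at 4.37 and 4.39 and only Cd53 called (-0.87). The part of such cells in the results below was not tested.

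Of the 39 collagen genes, 10 were called higher in the clone, 9 lower and 20 did not pass. The called share was 48.7%, beside 23.8% of all rows, 12.8% of which were called higher and 10.9% lower as shares of all rows. Of the 21 collagen genes above the median level 16 were called, beside 42.1% of all rows above that level. The groups did not overlap for 22 collagen genes, or 56.4%, beside 37.2% of all rows. A total of 6 of the 39 collagen genes were called with a change of at least 2-fold, beside 1012 of all 35556 rows (2.85%), which are not matched for level. The median difference over the 39 genes was -0.03, near that of all rows. By class, 6 of the 8 fibrillar and FACIT calls were lower, all 4 type IV calls were higher, and type VI held calls in both directions.

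**Figure D1:**
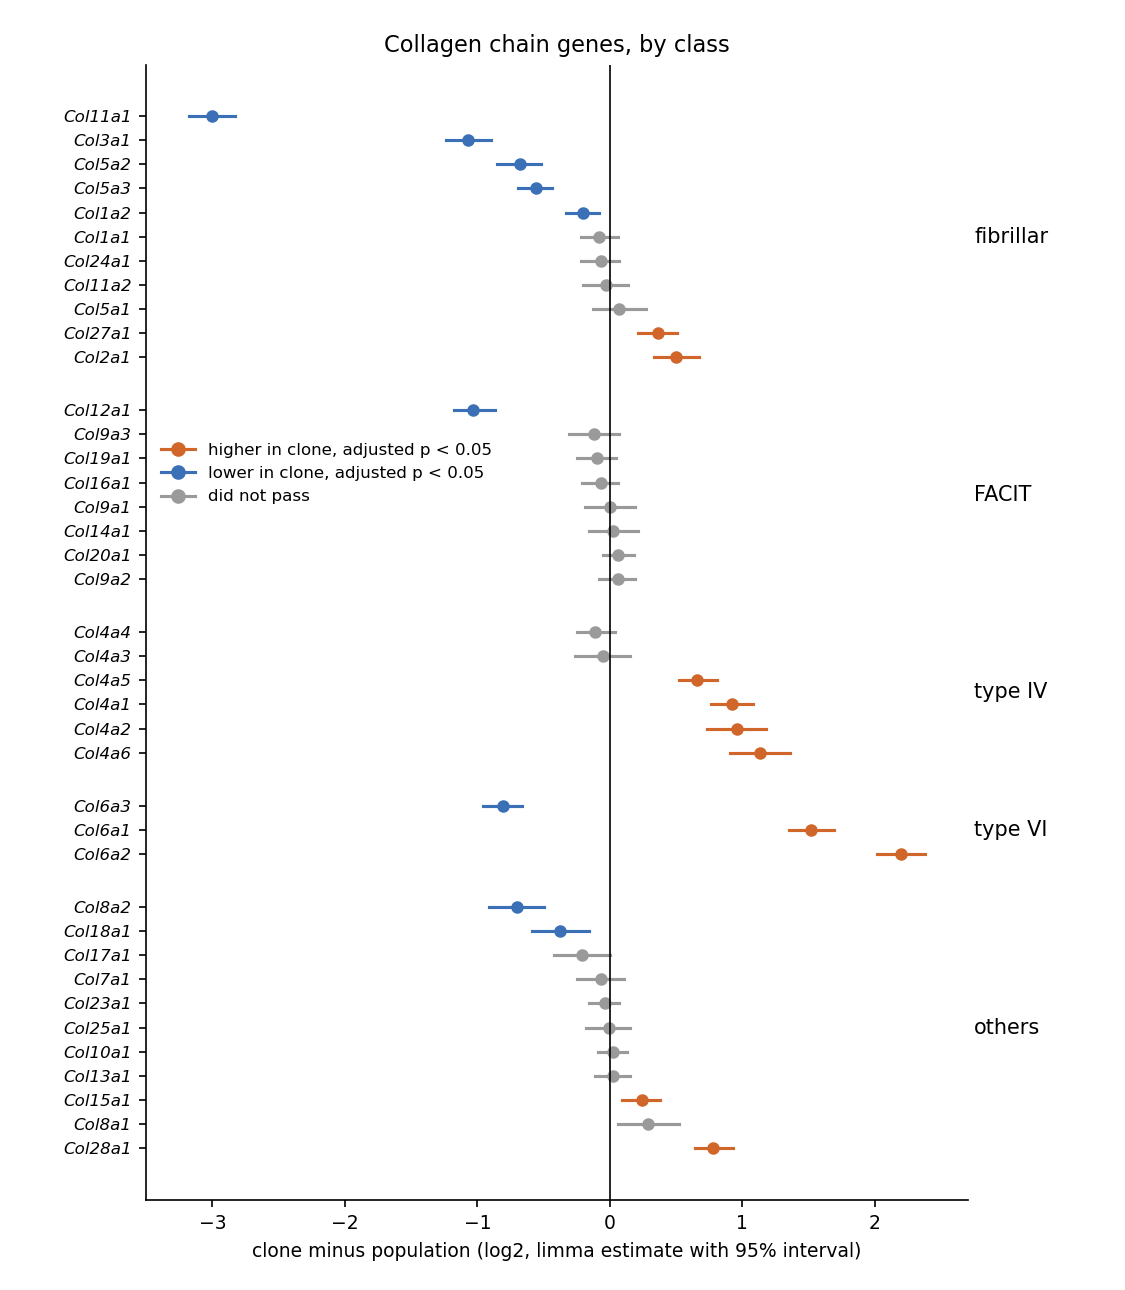
Clone minus population difference of each of the 39 collagen genes (x axis, log2; limma estimate as a point, 95% interval as a bar), grouped by class (y axis) and coloured by the call. The points run from -3.00 for Col11a1 to 2.20 for Col6a2, with 4 of 6 type IV chains to the right of 0 and 20 genes in grey near it.

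Among the fibrillar chains 5 of 11 fell, 2 rose and 4 did not pass, with a median difference of -0.08. The chains that fell were Col11a1, Col3a1, Col5a2, Col5a3 and Col1a2, and those that rose were Col2a1 and Col27a1. Col11a1, the chain that helps to start fibrils in cartilage and limits their width, had the largest fall of the 39. Its levels were 8.32, 8.56 and 8.44 in the population arrays and 5.50, 5.43 and 5.38 in the clone arrays. The groups lay far apart, and the clone levels sat just above the array medians. The difference was -3.00 ± 0.07 (SE, n = 3 against 3), or 8.02-fold lower with a 95% interval of 7.10 to 9.06 (limma, adjusted p = 2.22e-06). Among all rows called lower, 20 fell further than Col11a1. Its partner chain Col11a2 lay close to the array medians in both groups and differed by -0.03 (adjusted p = 0.84).

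The start of Col11a1 is shown because this gene had the largest fall of the collagens. The sequence is from RefSeq on GRCm38.p6, chr3:114030290-114030478, plus strand, and covers the part of the 250 bases before the start that lies outside the annotated gene. Capitals mark a GC box (GGGCGG, or CCGCCC on the other strand) and a CCAAT box (CCAAT, or ATTGG on the other strand), where overlaps between motifs were allowed.
Col11a1: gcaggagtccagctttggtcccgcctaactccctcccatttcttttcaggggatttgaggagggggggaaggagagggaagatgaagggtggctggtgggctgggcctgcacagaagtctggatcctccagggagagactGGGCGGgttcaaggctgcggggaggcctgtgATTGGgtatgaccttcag
The stretch held 1 GC box and 1 CCAAT box, with 60.3% G and C. In windows of 250 bases before the starts of all RefSeq mouse genes in the table, 32.7% of 32851 held a GC box, 33.8% a CCAAT box and 12.4% a TATAAA (or TTTATA). Of 35 such windows of the 32 collagen genes with an entry, 19 (54.3%) held a GC box, 12 (34.3%) a CCAAT box and 5 (14.3%) a TATAAA. A match describes these letters and does not show a bound site.

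Type III collagen, which forms fine fibrils together with type I, is built from the single chain Col3a1. Its levels were 10.91, 11.04 and 10.97 in the population and 9.85, 10.02 and 9.83 in the clone. All clone arrays lay below all population arrays, and the gene fell 2.10-fold (-1.07 ± 0.07, n = 3 against 3, limma adjusted p = 9.64e-05). Type V collagen starts type I fibrils in most tissues, and of its 3 chains 2 fell and 1 did not pass. Col5a2 was at 11.30, 11.43 and 11.36 in the population and at 10.63, 10.79 and 10.62 in the clone, a fall without overlap (-0.68 ± 0.07, limma adjusted p = 0.000548). A second row of Col5a2, near the array medians at 5.29 and 5.26, differed by -0.02 (adjusted p = 0.922), and with both rows averaged the difference of the gene was -0.35. Col5a3 fell from 5.95 to 5.39 (-0.56 ± 0.05, adjusted p = 0.00038). Col5a1, the chain shared by most type V molecules, was at 8.79 and 8.86 and did not pass (difference 0.07, 95% interval -0.13 to 0.27).

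Type I collagen, the bulk of bone and tendon matrix, is made from Col1a1 and Col1a2. Col1a2 levels were 13.10, 13.12 and 13.11 in the population and 12.88, 12.98 and 12.86 in the clone. The groups did not overlap, and the fall was 1.15-fold (-0.20 ± 0.05, limma adjusted p = 0.034). This call did not survive leaving out any one array other than clone array 2, with adjusted p-values of 0.078 to 0.108 in those fits. Col1a1 levels were 12.69, 12.63 and 12.68 in the population and 12.63, 12.63 and 12.50 in the clone. The groups met at 12.63 as printed but did not overlap before rounding. Col1a1 did not pass, with a difference of -0.08 ± 0.06 and a 95% interval of -0.22 to 0.06 (adjusted p = 0.413). Beside these chains, 3 of 5 measured osteoblast markers were called higher, Alpl (3.42), Runx2 (0.58) and Sp7 (0.40), and Ibsp lower (-0.29). Calls in either direction covered 23.8% of all rows and 42.1% of rows above the median level, where 3 of these 5 markers lay.

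Col2a1, the main fibrillar chain of cartilage, rose from 6.31 ± 0.08 to 6.81 ± 0.10 (SD, n = 3 each), a difference of 0.50 ± 0.07 (limma adjusted p = 0.00278). Col27a1, a fibrillar chain of developing cartilage, rose from 5.40 to 5.76 (0.36 ± 0.06, adjusted p = 0.00635). Of 7 chondrocyte markers 3 were called higher and none lower, and 5 lay below the array medians in both groups. Their called share was 42.9%, beside 23.8% of all rows. Sox9, a transcription factor of cartilage, rose by 1.96, Acan went from 4.56 to 5.25 (0.69) and Matn3 rose by 0.27. The mean level of these markers was 4.77 to 4.80 in the population arrays and 5.18 to 5.24 in the clone arrays, and their part in the Col2a1 difference was not tested. Col24a1, a minor fibrillar chain, differed by -0.07 (adjusted p = 0.481).

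**Figure D2:**
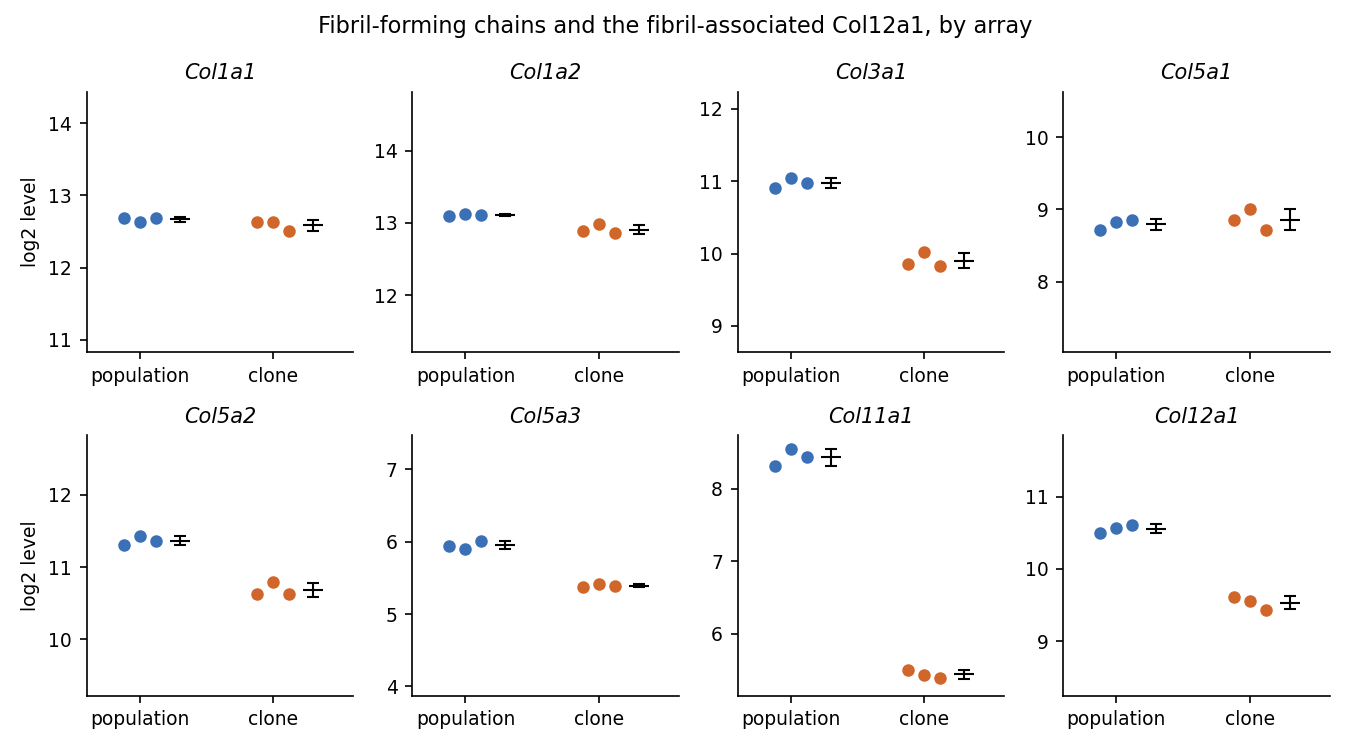
Log2 level (y axis, each panel spanning the same number of units) in each array of 7 fibrillar chains and Col12a1, population in blue and clone in orange, with the group mean and SD as black bars. Col11a1, Col3a1, Col5a2, Col5a3 and Col12a1 drop without overlap in the clone, while Col1a1 and Col5a1 did not pass the test.

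Of the 8 FACIT chains only Col12a1 was called, and it fell. Col12a1 binds the surface of type I fibrils in tendon and other load-bearing tissue. Its levels were 10.49, 10.57 and 10.61 in the population and 9.61, 9.55 and 9.43 in the clone. The groups did not overlap, and the fall was 2.04-fold (-1.03 ± 0.07, n = 3 against 3, limma adjusted p = 8.32e-05). Col16a1, found near fibrils and at the cell surface, was the other FACIT chain above the median level, at 7.44 and 7.37, and did not pass (-0.07, 95% interval -0.21 to 0.06). The type IX chains, which coat cartilage fibrils, differed by -0.12 (Col9a3), 0.00 (Col9a1) and 0.06 (Col9a2). Col19a1 differed by -0.10, Col14a1, a partner of type I fibrils, by 0.02 and Col20a1 by 0.06. None of these passed, and 4 of the 8 FACIT chains lay below the array medians in both groups.

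Of the 6 type IV chains 4 rose, none fell and 2 did not pass, with a median difference of 0.79. Col4a1 and Col4a2 make the network present in nearly all basement membranes. Col4a1 levels were 5.72, 5.74 and 5.90 in the population and 6.67, 6.76 and 6.68 in the clone. The clone arrays lay well above, a rise of 1.89-fold (0.92 ± 0.07, n = 3 against 3, limma adjusted p = 0.000138). Col4a2 levels were 5.74, 5.57 and 5.71 in the population and 6.68, 6.75 and 6.45 in the clone. It rose 1.94-fold (0.96 ± 0.09, adjusted p = 0.000503), about as far as Col4a1. The difference between the levels of both chains was 0.11 ± 0.12 in the population and 0.08 ± 0.13 in the clone (SD, n = 3 each), a change of -0.03 (exact permutation p = 1, 2-sided).

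Col4a5 and Col4a6 form a network found in smooth muscle and some epithelia. Col4a6 had levels of 4.64, 4.54 and 4.53 in the population and 5.84, 5.76 and 5.51 in the clone. The population lay below the array medians and the clone above them, and the rise was 2.20-fold (1.13 ± 0.09, limma adjusted p = 0.000231). Since the population level was in the dim range, the fold may understate the change in RNA. Col4a5 rose from 6.63, 6.77 and 6.74 to 7.44, 7.35 and 7.34 (0.66 ± 0.06, adjusted p = 0.00037). Col4a3 and Col4a4, which join Col4a5 in the kidney filter, were at 4.93 and 5.21 in the population and differed by -0.05 and -0.11 (adjusted p = 0.764 and 0.292).

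These chains come from genes that stand in pairs, head to head. Col4a1 and Col4a2 start 21 bases apart in RefSeq on chromosome 8, on opposite strands, and Col4a5 and Col4a6 start 1343 bases apart on chromosome X. The CCAAT boxes next to the shared start of Col4a1 and Col4a2 are shown because both genes rose together. They are given as 30-base stretches of GRCm38.p6, chr8:11312952-11312981 on the minus strand for Col4a1 and chr8:11312763-11312792 on the plus strand for Col4a2, with the box in capitals (CCAAT, or ATTGG on the other strand).
Col4a1: cttgcccgggATTGGcgagccaaggggctc
Col4a2: gaggagctccCCAATttgttggcgctgccc
The first base of the box lay 145 bases before the Col4a1 start and 32 bases before the Col4a2 start. Since the genes overlap at their starts, each stretch lies within the transcript of the partner gene.

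All 3 type VI chains were called, and they went in opposite directions. In the classic type VI molecule Col6a1 and Col6a2 join with Col6a3, the longest of these chains, and beaded filaments of it surround muscle, fat and cartilage cells. Col6a2 levels were 8.31, 8.20 and 8.27 in the population and 10.52, 10.55 and 10.32 in the clone. No other collagen rose as far: the groups were widely apart, at 4.60-fold higher in the clone (2.20 ± 0.07, n = 3 against 3, limma adjusted p = 6.57e-06). Col6a1 levels were 10.04, 10.07 and 10.07 in the population and 11.55, 11.72 and 11.47 in the clone. It rose 2.86-fold, again without overlap (1.52 ± 0.07, adjusted p = 2.5e-05). Col6a3 levels were 10.14, 10.09 and 10.14 in the population and 9.35, 9.39 and 9.21 in the clone. It fell 1.75-fold, with every clone array below every population array (-0.81 ± 0.06, adjusted p = 0.000187).

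The bases before the starts of the type VI genes are shown because the chains moved in opposite directions. They are RefSeq sequence on GRCm38.p6, all on the minus strand, at chr10:76726045-76726294 for Col6a1, chr10:76623631-76623880 for the upstream start of Col6a2 and chr1:90844002-90844221 for Col6a3, whose window is shortened to the part outside the annotated gene. Capitals mark a GC box (GGGCGG, or CCGCCC on the other strand).
Col6a1: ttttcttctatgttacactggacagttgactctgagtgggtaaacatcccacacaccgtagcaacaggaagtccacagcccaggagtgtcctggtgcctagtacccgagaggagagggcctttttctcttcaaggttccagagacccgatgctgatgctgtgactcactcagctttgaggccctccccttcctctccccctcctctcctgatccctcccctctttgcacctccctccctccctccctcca
Col6a2: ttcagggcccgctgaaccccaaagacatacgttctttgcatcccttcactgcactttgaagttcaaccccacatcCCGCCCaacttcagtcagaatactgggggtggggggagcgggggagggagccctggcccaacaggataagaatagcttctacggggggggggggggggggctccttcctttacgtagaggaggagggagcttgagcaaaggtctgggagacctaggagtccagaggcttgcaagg
Col6a3: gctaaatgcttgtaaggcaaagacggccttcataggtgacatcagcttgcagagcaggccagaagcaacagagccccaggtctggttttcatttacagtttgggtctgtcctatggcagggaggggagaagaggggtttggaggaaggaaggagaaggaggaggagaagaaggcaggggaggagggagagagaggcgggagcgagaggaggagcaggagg
The Col6a2 stretch held 1 GC box, while the window of the other Col6a2 start, at chr10:76623405-76623654 and not shown, held 3. The Col6a1 and Col6a3 stretches held no GC box, CCAAT box or TATAAA. The G and C contents of the stretches shown were 56.0% (Col6a1), 59.2% (Col6a2) and 56.4% (Col6a3), beside a median of 52.4% over all windows. That the letters are missing says nothing of the factors that act there.

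**Figure D3:**
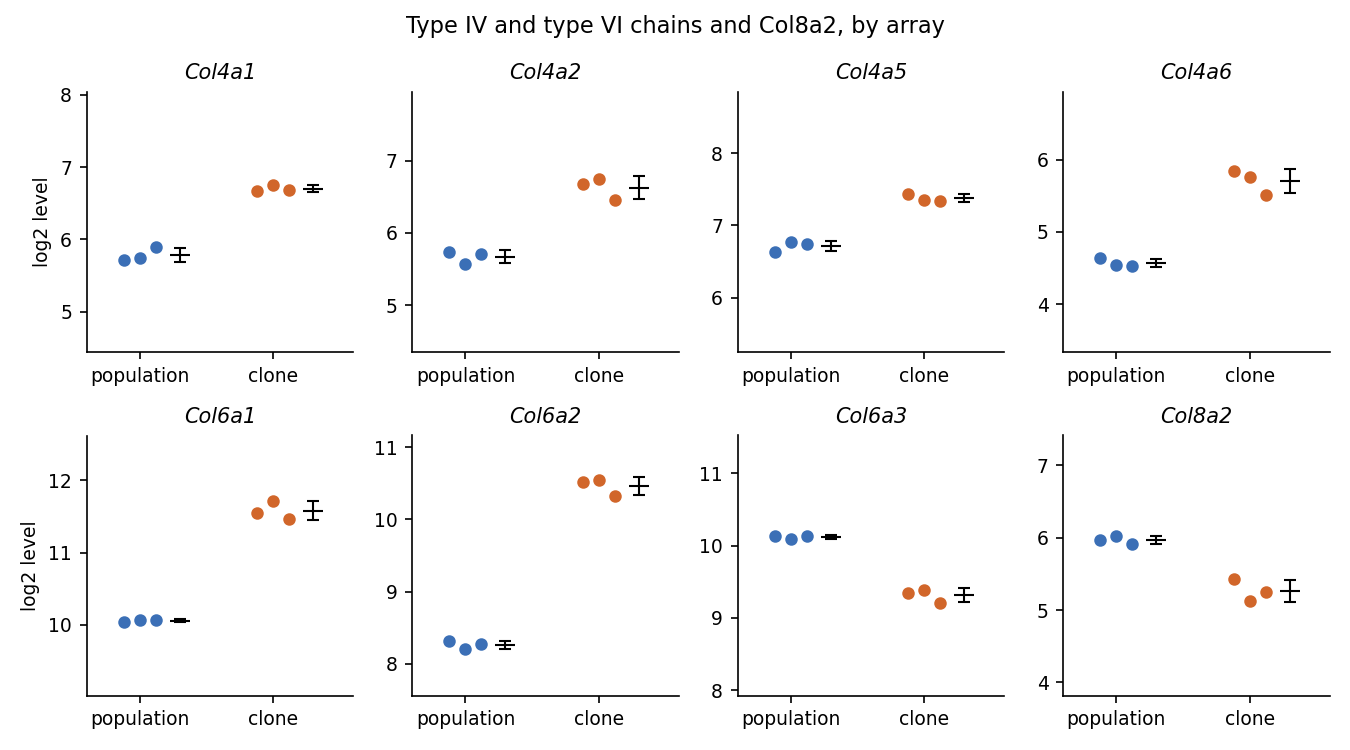
Log2 level (y axis, each panel spanning the same number of units) in each array of 4 type IV chains, 3 type VI chains and Col8a2, population in blue and clone in orange, with the group mean and SD as black bars. The type IV chains, Col6a1 and Col6a2 sit higher in all 3 clone arrays and Col6a3 and Col8a2 lower, without overlap in any panel.

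The difference between chains of one collagen type was taken within each array for 13 pairs and compared between groups by an exact 2-sided permutation test. With 3 arrays against 3 its smallest p is 0.1, which 9 of the 13 pairs reached because their groups did not overlap (Benjamini-Hochberg adjusted p = 0.144), so no pair could pass at this size. Col6a1 minus Col6a3 was -0.06 ± 0.04 in the population and 2.26 ± 0.06 in the clone, a change of 2.32. Col6a2 minus Col6a3 went from -1.86 ± 0.03 to 1.14 ± 0.03, a change of 3.01 (SD, n = 3 each). Within the pair that rose, Col6a1 minus Col6a2 changed by -0.68, since Col6a2 rose further. These values show how far the chains parted, and the starting differences carry no meaning because each chain has its own probes.

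The other pairs without overlap were Col11a1 minus Col11a2 with a change of -2.97, Col8a1 minus Col8a2 with 0.99, Col5a1 minus Col5a2 with 0.75, Col5a1 minus Col5a3 with 0.63, Col4a5 minus Col4a6 with -0.47 and Col1a1 minus Col1a2 with 0.12. With both Col5a2 rows averaged, Col5a1 minus Col5a2 changed by 0.42. The pairs that overlapped were Col4a1 minus Col4a2, Col4a3 minus Col4a4 (change 0.06, exact permutation p = 0.7), Col9a1 minus Col9a2 (-0.06, p = 0.9) and Col9a1 minus Col9a3 (0.12, p = 0.3).

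**Figure D4:**
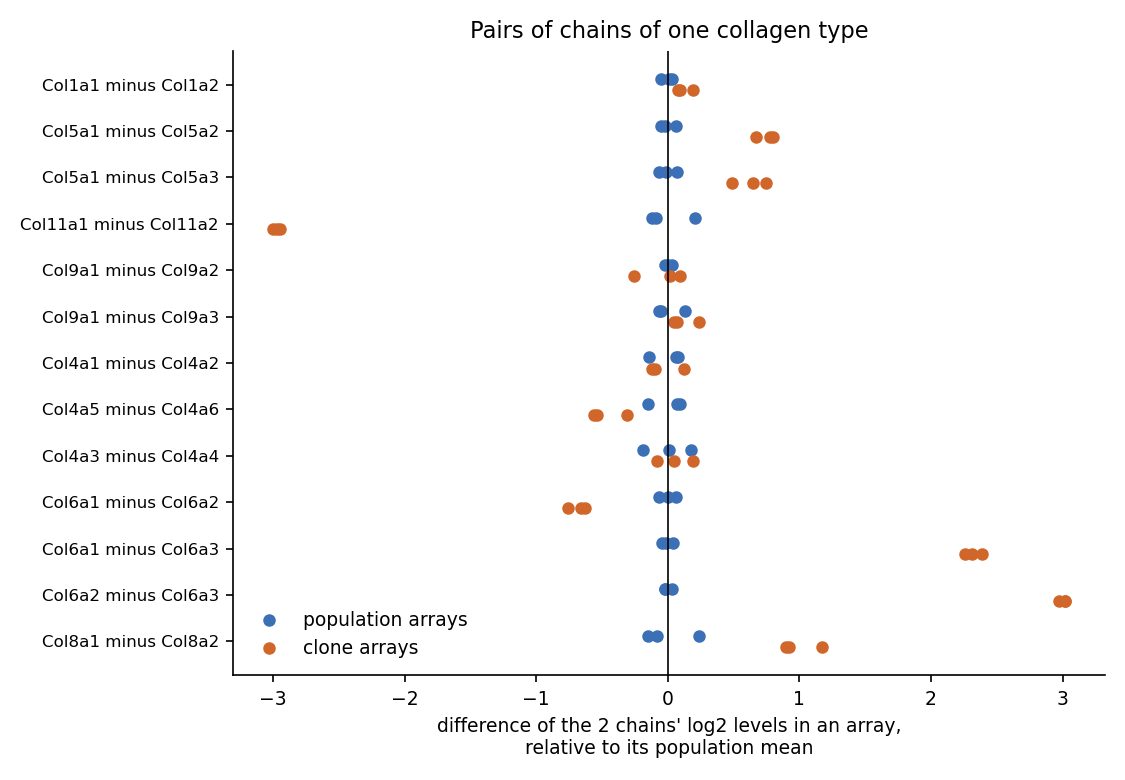
Difference of the log2 levels of 2 chains in each array, with the population mean of that pair set to 0 (x axis), for 13 pairs of chains of one collagen type (y axis), population arrays in blue and clone arrays in orange. The clone arrays lie near 3.01 for Col6a2 minus Col6a3 and near -2.97 for Col11a1 minus Col11a2, while both groups overlap for Col4a1 minus Col4a2.

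Among the 11 chains of other types 2 rose, 2 fell and 7 did not pass, with a median difference of -0.01. Col28a1, a chain described around peripheral nerve cells, rose from 4.87 ± 0.08, below the array medians, to 5.65 ± 0.05 (1.72-fold, 0.78 ± 0.06, limma adjusted p = 0.000177). Col8a2, a short chain of the corneal and vascular matrix, fell from 5.97, 6.02 and 5.91 to 5.43, 5.12 and 5.25 (-0.70 ± 0.09, adjusted p = 0.00128). Its partner Col8a1 went from 8.85 to 9.14 and did not pass (0.29 ± 0.10, adjusted p = 0.0767), though without population array 3 it did (0.38, adjusted p = 0.0239). Col15a1 and Col18a1 are related chains of the basement membrane zone, and Col18a1 is the source of endostatin. Col18a1 started at 5.37 and fell to below the array medians (-0.38 ± 0.09, adjusted p = 0.0227). Col15a1 rose from 4.81 to 5.04, below the array medians in both groups (0.24 ± 0.06, adjusted p = 0.0305).

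The last calls were weak. Col18a1 did not pass when any single array other than clone array 1 was left out (adjusted p up to 0.0762), and Col15a1 did not pass without population array 2, population array 3, clone array 1 or clone array 2 (up to 0.0955). Col17a1, the chain that ties skin cells to the basement membrane, differed by -0.21 (adjusted p = 0.145) and passed only without population array 2 (-0.29, adjusted p = 0.0399). The anchoring fibril chain Col7a1 differed by -0.07, the membrane-spanning chains Col23a1, Col25a1 and Col13a1 by -0.04, -0.01 and 0.02, and Col10a1, the chain of mature growth plate cartilage, by 0.02. Col10a1 lay below the array medians in both groups, at 4.46 and 4.47.

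The genes that make, mature, bind and break down collagen were read from the same fit, as 4 lists. Of 22 measured genes for folding, modification and secretion 10 fell and 2 rose, with a median of -0.10 and 54.5% called, beside 23.8% of all rows. Since 21 of the 22 lay above the median level, the share of rows above that level, 42.1%, is the closer background. The largest falls were in Plod2, which hydroxylates lysine for cross-links, at 3.55-fold (-1.83 ± 0.07, limma adjusted p = 9.89e-06), and in the prolyl hydroxylase subunits P4ha2 (-1.38 ± 0.06) and P4ha1 (-1.12 ± 0.06). P3h2, which hydroxylates proline at the position used in type IV collagen, rose (0.80 ± 0.07, adjusted p = 0.000248). Serpinh1, the collagen chaperone of the secretory pathway, differed by 0.05 and did not pass.

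Of 14 genes that process propeptides or cross-link collagen 7 fell and 3 rose, with a median of -0.30 and 71.4% called, beside 23.8% of all rows and 42.1% of rows above the median level, where 12 of the 14 lay. Loxl2, a lysyl oxidase that cross-links collagen, was at 10.35, 10.26 and 10.36 in the population and at 6.04, 6.26 and 6.12 in the clone, 18.2-fold lower (-4.19 ± 0.07, limma adjusted p = 5.83e-07). Loxl3 (-1.04), the propeptidase Adamts14 (-0.86) and Loxl1 (-0.82) followed. The 3 that rose were Adamts2 (0.42), Pxdn, a peroxidase that cross-links type IV collagen (0.38), and Pcolce, an enhancer of propeptide removal (0.24).

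Of 10 measured collagen receptors 3 fell and 2 rose, with a median of -0.02 and 50.0% called, beside 23.8% of all rows and 42.1% of rows above the median level, where 6 of the 10 lay. Itga11, an integrin chain for fibrillar collagen, fell 5.87-fold (-2.55 ± 0.06, limma adjusted p = 2.22e-06), while Ddr1, a collagen-binding tyrosine kinase, rose 4.32-fold (2.11 ± 0.07, adjusted p = 5.1e-06). Itga1, an integrin chain that binds type IV collagen, rose by 0.87, and Mrc2, which takes up collagen fragments, fell by 0.82. Of 13 collagen-degrading enzymes 7 fell and 2 rose, with a median of -0.35 and 69.2% called, beside 23.8% of all rows and 42.1% of rows above the median level, where 9 of the 13 lay. The protease Ctsk fell from 6.96 to 4.36, below the array medians (-2.61 ± 0.08, adjusted p = 3.99e-06). The collagenase Mmp13 fell by 1.82 and the protease Ctsl by 1.14, and Pepd, which releases proline from small peptides, rose by 0.97.

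**Figure D5:**
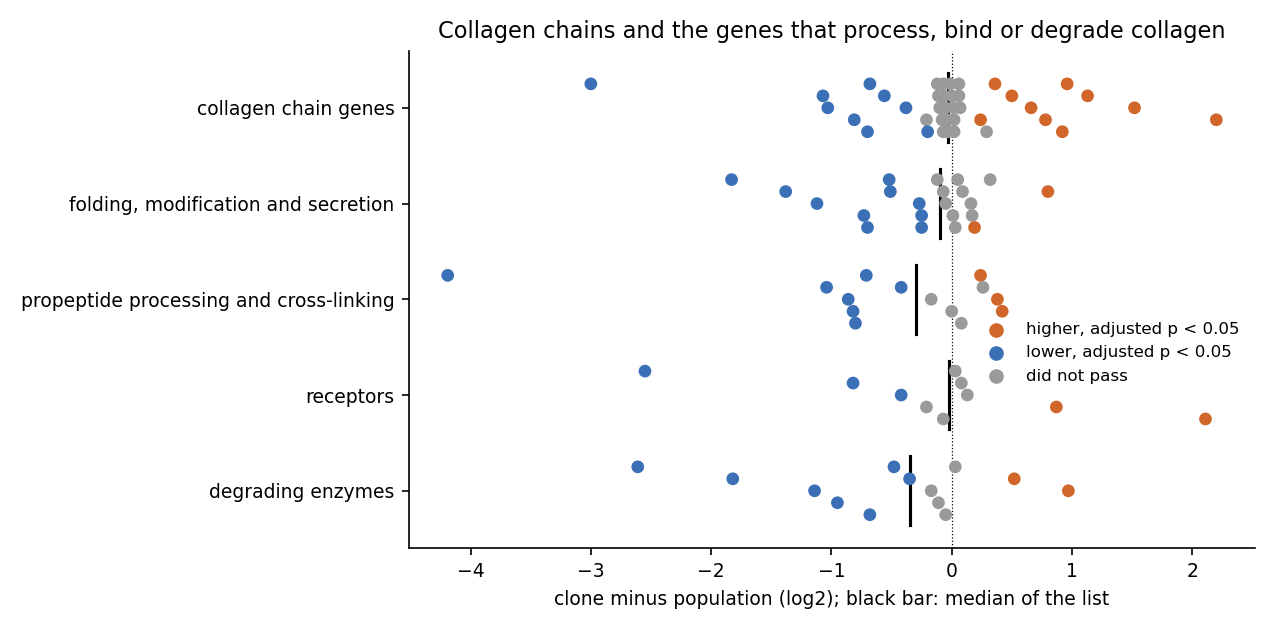
Clone minus population difference (x axis, log2) of the collagen genes and of the genes that fold, process, bind or degrade collagen (y axis), each point a gene coloured by its call and each black bar the median of its list. The medians lie between -0.35 and -0.02, and the lowest point is Loxl2 at -4.19.

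The median difference varied between chromosomes, and its values are given here beside the collagen genes they hold. Over rows above the median level the median difference was -0.39 on chromosome 3, which holds Col11a1, Col24a1 and Col25a1, and -0.48 on chromosome 15, which holds Col2a1 and Col14a1. It was 0.20 on chromosome 10, which holds Col6a1, Col6a2, Col18a1, Col10a1 and Col13a1. On chromosome 1, which holds Col3a1, Col5a2, Col6a3, Col9a1, Col19a1, Col4a3 and Col4a4, it was 0.09. Chromosome 8, with Col4a1 and Col4a2, was at 0.05 and chromosome X, with Col4a5 and Col4a6, at 0.07. With each chromosome centred on these medians, Col11a1 was at -2.61, Col6a2 at 2.00, Col6a1 at 1.31, Col6a3 at -0.90 and Col2a1 at 0.98, all still called. Col1a1, on chromosome 11, was then called lower (-0.28, adjusted p = 0.013), and 31 of 39 collagen genes were called, 15 higher and 16 lower. That setting shifts dim genes by the shift of bright ones. The part of these chromosome medians in the collagen differences was not tested further.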

How the data were processed

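Total RNA of 6 samples was turned into biotinylated cRNA by an Affymetrix procedure, per the labels' protocols. Which array was used, and which annotation and genome build, is not given in the sources used here. Per the submitters' processing notes, RMA and Partek (versions not stated) gave the deposited log2 values. RMA puts all arrays on one distribution, which hides any difference in the amount of RNA in a cell, and it compresses dim genes. The authors' deposited table gives, per the file headers, gene symbols, an unadjusted p-value and a linear fold with a sign, clone against population. The log2 of that fold differed from the difference of group means by at most 7.81e-05. A further 6 columns of per-array values matched no label and were not used.

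All 35556 rows were fitted with limma 3.58.1 (lmFit and eBayes) in R 4.3.3. There were 4 residual degrees of freedom and 2.72 from the prior, with 2-sided p-values and Benjamini-Hochberg adjustment over all rows. The fit was tested on simulated data. Fold changes are 2 to the power of the log2 difference, and intervals are 95% intervals of the fit. Chain pairs were compared with scipy 1.17.1 in Python 3.11.15. Symbols of the listed genes, chromosomes and gene order, and promoter sequences, came from RefSeq tables of GRCm38.p6. Rows without a symbol in the deposited table could not be members, and collagen genes listed under older symbols are given in the closing section. Arrays have no read depth, so their number limits the precision, and no 2 arrays of a group shared more than 5 equal values.

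Every collagen gene is named. Values in every array are given for called genes with a log2 difference of at least 1 in size and for the chains of types I, III and VI and Col4a1 and Col4a2, and from each pathway list up to 4 called genes with the largest difference are named. Values in every array of Col5a2, Col4a5, Col8a2 and Loxl2, and the values of Serpinh1, Adamts2, Pxdn and Pcolce, were added after seeing them. The members and lists were chosen with earlier results of these data known. The alternatives covered normalization, dim rows, variance moderation, thresholds, the authors' p-values, averaged rows, the sample number as a block and leaving out each array. Centring chromosomes on their bright rows was added after seeing the data.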

Additional observations from a re-analysis of the deposited data

How the results depend on the processing

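Of the 19 called collagen genes, 12 were called in all 19 alternative settings. Col4a6 was called in the 18 that tested it and was too dim for the setting with only rows above the median level, as were Col15a1 and Col18a1. A further 6 were lost in at least 1: Col15a1 and Col18a1 in 10 settings each, Col1a2 in 8, and Col27a1, Col2a1 and Col5a3 where a change of at least 1.5-fold was asked for. No called gene turned its direction. Leaving out each array gave 17 calls each time, 9 to 10 higher and 7 to 8 lower. The deviations of same-numbered samples from their group means correlated with r of -0.184, -0.139 and -0.035, and those of differently numbered samples with -0.011 to 0.161. Deviations from a mean of 3 arrays depend on each other, so these values cannot decide whether samples were paired. With the sample number as a replicate block there were 16 calls, 9 higher and 7 lower, without Col1a2 (adjusted p = 0.0916), Col18a1 (0.0591) and Col15a1 (0.0595).

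With chromosomes centred on their rows above the median level, which also moves dim genes, 31 genes were called, 16 of them lower. The class medians were then -0.26 (fibrillar), -0.09 (FACIT) and 1.31 (type VI). The uncalled genes Col24a1 (0.32), Col25a1 (0.38), Col10a1 (-0.19) and Col13a1 (-0.18) changed sign there and were called. With only rows above the median level, the medians were -0.55 over 2 FACIT chains, 0.92 over 3 type IV chains and 0.29 over 3 other chains, because fewer genes entered. The median of the other chains was -0.05 with centred arrays and -0.06 to 0.01 when single arrays were left out. At least 1.5-fold left 6 called genes each in the folding and the cross-linking list and 13 collagen genes. Calls of genes below the array medians rest on values with no measured floor.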

Other observations

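Further chain genes carried older symbols and were outside the rule. The type VI chain genes Col6a5 and Col6a6, on chromosome 9, each had 2 rows, and all 4 rows were called higher in the clone (limma, Benjamini-Hochberg adjusted p under 0.05). The Col6a5 rows went from 4.22 to 5.17 (0.95 ± 0.13, adjusted p = 0.00196) and from 5.44 to 5.95 (0.51 ± 0.06, adjusted p = 0.00154), and the Col6a6 rows differed by 0.38 and 0.46 (adjusted p = 0.00347 and 0.00484). Only the second Col6a5 row lay above the array medians in both groups. Col6a4 differed by 0.19 (adjusted p = 0.0704) and Col26a1 by -0.04 (adjusted p = 0.716).

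Several collagen genes are next to each other in the order of RefSeq protein-coding genes, and the called neighbours moved the same way. Col6a2 and Col6a1 differed by 2.20 and 1.52, while the 6 measured genes around them lay between -0.38 (Col18a1) and 0.30, with 3 called higher and 1 lower. Col4a1 and Col4a2 differed by 0.92 and 0.96, and the 6 genes around them lay between -0.08 and 0.55, with 2 called higher. Col4a6 and Col4a5 differed by 1.13 and 0.66 and the 6 genes around them by -0.35 to 0.20, with 1 called lower. Col3a1 and Col5a2 differed by -1.07 and -0.68. The 6 genes around them lay between -0.33 and 1.06, with 1 called higher and 1 lower. Calls in either direction covered 23.8% of all rows. The neighbours Col9a1 and Col19a1, and Col4a4 and Col4a3, were not called. Col18a1, with 2 genes between it and Col6a1, went the other way (-0.38), and the genes between differed by 0.22 and 0.30.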
